A study of Mus musculus with 56 samples.

Results

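Heme synthesis, heme breakdown and cellular iron traffic were followed through 8 genes in 56 mouse mammary tumors: Alas1, Alas2, Fech, Hmox1, Blvra, Blvrb, Tfrc and Slc40a1. The genes were picked by symbol, each read from its probe set with the highest mean over the 56 arrays, and Hmox1 and Alas2 were on the list because they were low in tumors of irradiated wild-type hosts, so that these 2 were selected on values of that comparison. They are 8 of 12508 genes kept by a filter on dim probe sets. In total 18 probe sets carry their symbols. In GRCm38.p6 Hmox1 lies at chr8:75093618-75100593 and Alas2 at chrX:150547417-150570622, and the others lie on chromosomes 1 (Slc40a1), 2 (Blvra), 7 (Blvrb), 9 (Alas1), 16 (Tfrc) and 18 (Fech). In wild-type hosts the mean of Hmox1 was 2.87-fold lower and that of Alas2 3.17-fold lower in tumors of irradiated hosts than in tumors of sham-irradiated hosts, and the means of the other 6 genes differed by at most 1.27-fold. In Tgfb1 heterozygote hosts none of the 8 genes passed the test, and 0 of all 12508 genes did. The differences of Hmox1 and Alas2 were positive there. The wild-type differences were smaller, 1.496-fold for Hmox1 and 1.21-fold for Alas2, when a sham tumor that stood apart and the arrays with little 18S ribosomal RNA signal, 4 of them sham tumors, were left out.

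All tumors grew from fragments of mammary gland that lacked p53 and were never irradiated, placed in the inguinal fat pads of female BALB/c hosts whose own mammary epithelium had been cleared at 3 weeks of age. Each host received radiation or a sham treatment 3 days before the transplant, and carried either 2 intact copies or 1 intact copy of Tgfb1, which encodes the cytokine TGF-beta 1. Of the tumors in wild-type hosts 9 had a sham-treated and 23 an irradiated host, and of those in Tgfb1 heterozygote hosts 6 and 18. The p53 loss and the cleared fat pad are shared by every group, sham groups included, and the fat pad around each transplant is the host's; the labels give no radiation dose, no age at tumor harvest and no statement on whether tumors shared a host. The comparison of irradiated with sham hosts asks what exposure of the host alone does to tumors of unexposed epithelium.

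Heme is built in a chain of enzymatic steps that begins with 5-aminolevulinate synthase, made as a general form (Alas1) and an erythroid form (Alas2), and ends with ferrochelatase (Fech), which inserts iron into the porphyrin ring. Heme oxygenase-1 (Hmox1) opens the ring and releases iron and biliverdin. It is induced by heme and by oxidative stress and is abundant in macrophages that clear red cells. Biliverdin reductases (Blvra, Blvrb) convert biliverdin to bilirubin, Blvrb from its IX beta form. Iron enters cells through the transferrin receptor (Tfrc) and leaves through ferroportin (Slc40a1), with cellular iron regulating the messages of both.

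Values are log2 expression (RMA), so a difference of 1 is a factor of 2. Array medians were 5.92 to 6.00 in wild-type and 5.57 to 5.71 in heterozygote hosts. These ranges do not overlap, the genotypes were taken as normalized separately, and levels are compared only within a host genotype. The control probe sets for 18S ribosomal RNA were below 11 on 9 arrays, of which 4 were among the 9 sham tumors of wild-type hosts, 2 among the 23 irradiated ones, and 1 and 2 in the sham and irradiated heterozygote groups. The epithelial markers Krt18 and Epcam had group means of 12.93 to 13.24 and 12.66 to 13.19. Single tumors varied more. The mean log2 level of 11 epithelial junction markers ran from 7.38 to 11.67 in sham and 6.52 to 11.84 in irradiated wild-type hosts. In heterozygote hosts it ran from 8.76 to 11.46 and from 8.62 to 11.65. The sham tumor of a wild-type host numbered 46 stood apart: its score over 10 endothelial markers (their mean log2 level) was 11.78, against 6.64 to 8.25 in the other 8 tumors of its group, and its score over 5 mast cell markers was 8.66, against 5.78 to 6.88. The mast cell score was not high in that tumor alone. In heterozygote hosts it reached 8.72 in sham tumor 52 and 8.14 in irradiated tumor 29. Values without this tumor or without the low 18S arrays stand beside the results that they moved.

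**Figure D1:**
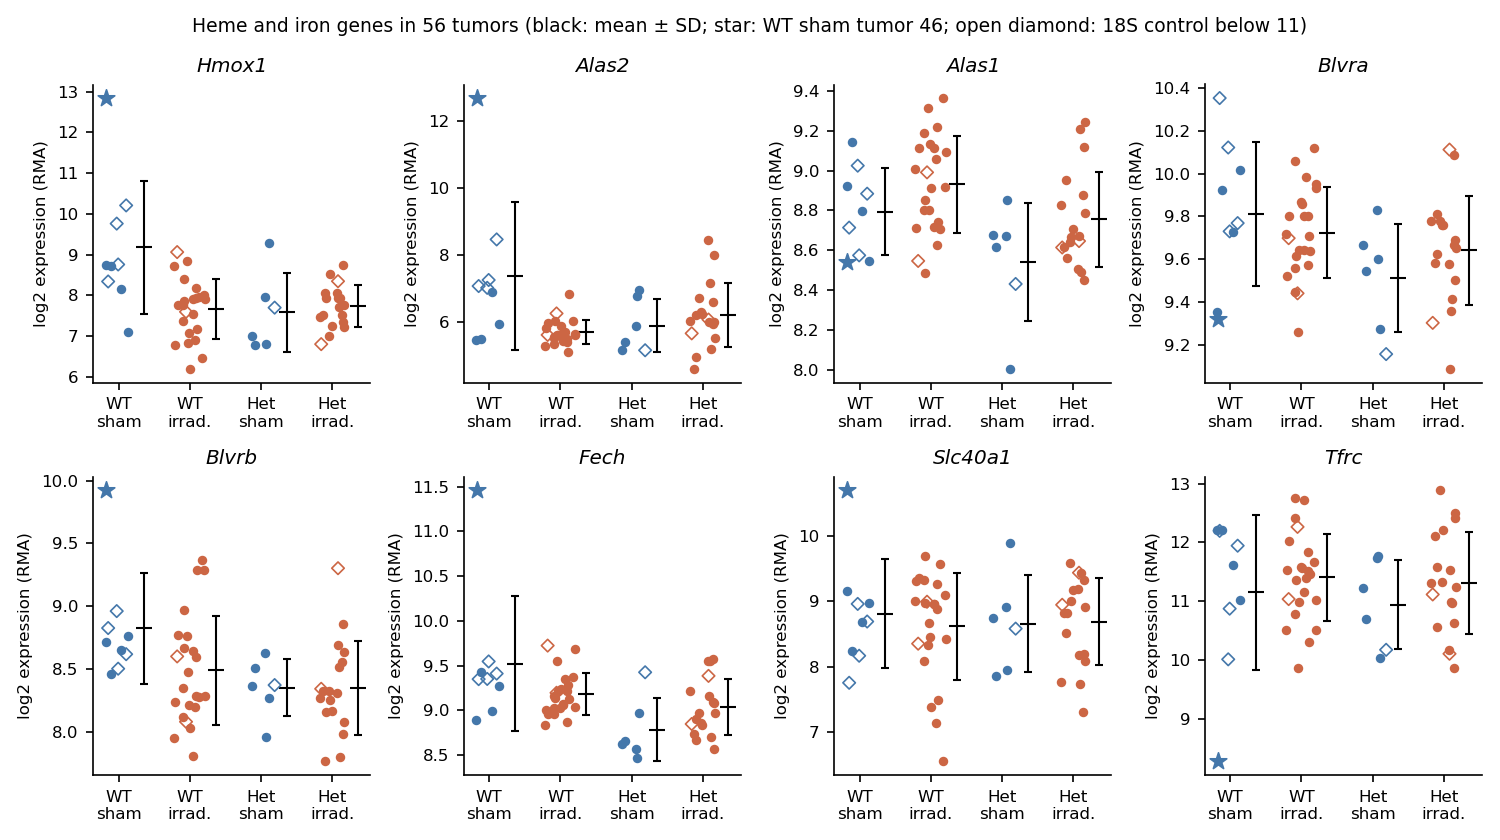
Log2 expression of the 8 genes in each of the 56 tumors by group, with the mean and SD beside the points; the star is the sham tumor of a wild-type host numbered 46, and open diamonds are arrays with an 18S control below 11. Hmox1 and Alas2 lie higher in the sham than in the irradiated wild-type group, and the star is the top point of all 56 in 5 panels and the bottom point in the Tfrc panel.

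With all arrays Alas2 had a larger difference in wild-type hosts than Hmox1; without tumor 46 the values were -1.001 for Alas2 and -1.06 for Hmox1. Alas2 encodes the synthase form that supplies heme for hemoglobin in red cell precursors. In the 9 sham tumors it was 5.49, 5.50, 5.95, 6.90, 7.03, 7.08, 7.26, 8.47 and 12.68. In the 23 tumors of irradiated hosts it ran from 5.12 to 6.85 with a median of 5.63. The groups overlapped only at their lower end: 6 of 9 sham tumors were above every irradiated tumor, and 23 of 23 irradiated tumors were below the sham median of 7.03. The means were 7.37 ± 2.20 (SD, n = 9) and 5.71 ± 0.36 (SD, n = 23), a difference of -1.66. No test is given for this difference or for any other of these genes in wild-type hosts, since the choice of genes used that contrast. Over all 12508 genes the same contrast gave 0 genes (0%) at an adjusted p under 0.05 in limma and 884 (7.07%) at an unadjusted p under 0.05.

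The spread of Alas2 among the sham tumors followed the arrays described above. The highest value, 12.68, belonged to tumor 46, and the values from 7.03 to 8.47 belonged to the 4 sham tumors with low 18S signal. The remaining 4 sham tumors lay between 5.49 and 6.90, inside the range of the irradiated group but for the highest of them. Among the irradiated tumors the 2 with low 18S read 5.63 and 6.27. The difference was -1.62 without the low 18S arrays. Without both, an alternative added after the data were seen, it was -0.27, with 15 of 21 irradiated tumors below the sham median. The mean 18S control was 11.28 ± 1.78 (SD, n = 9) in the sham and 12.74 ± 0.90 (SD, n = 23) in the irradiated group. The score over all 10 endothelial markers, each of them measured, ranged from 6.64 to 11.78 and from 6.60 to 8.58 in these groups. The part of tissue make-up and of the 18S signal in the difference was not tested.

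Alas2 was also a dim gene. Its probe set exceeded the filter value of 5.83 on 30 of the 56 arrays: 7 of 9 sham and 7 of 23 irradiated tumors of wild-type hosts, and 3 of 6 and 13 of 18 tumors of heterozygote hosts. The other 7 genes exceeded it on every array. The filter value lies below the array medians of wild-type hosts and above those of heterozygote hosts, so the counts are not compared between genotypes. Differences of Alas2 between tumors below that value lie among the dimmer part of all values on these arrays.

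In heterozygote hosts Alas2 was 5.17, 5.19, 5.43, 5.89, 6.80 and 6.97 in the 6 sham tumors, and ran from 4.61 to 8.45 with a median of 6.07 in the 18 irradiated ones. The irradiated group spread to both sides of the sham group, with 3 tumors above and 2 below every sham tumor. The difference was 0.31 (SE 0.50, 95% interval -0.69 to 1.31; limma adjusted p = 0.972), and 0.20 without the low 18S arrays. The 2 highest values, 8.45 and 8.01, were in irradiated tumors whose 18S control was not low, and the first of these tumors had the second highest endothelial score of the 56, 10.15. The wild-type difference of -1.66 and the heterozygote difference of 0.31 stand side by side without a test, because the first one chose the gene.

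Alas1 encodes the general form of the same synthase, which sets the rate of heme synthesis outside the erythroid line. It varied little, and the means were 8.79 ± 0.22 (SD, n = 9) and 8.93 ± 0.24 (SD, n = 23) in sham and irradiated wild-type hosts, with ranges of 8.54 to 9.14 and 8.48 to 9.36. In heterozygote hosts the sham tumors had a mean of 8.54 ± 0.30 (SD, n = 6) and the irradiated ones 8.76 ± 0.24 (SD, n = 18). The heterozygote difference of 0.21 (SE 0.12, 95% interval -0.02 to 0.45; limma adjusted p = 0.887) was not called, and 10 of 18 irradiated tumors were above the sham median. Leaving out the sham tumor with the lowest value brought it to 0.10.

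The synthase forms catalyse the same reaction from separate genes, and Alas2 but not Alas1 was on the list for its level, which is why the 150 bases upstream of their annotated starts are set side by side (RefSeq, GRCm38.p6). The Alas1 window is chr9:106247955-106248104 on the minus strand and the Alas2 window chrX:150547267-150547416 on the plus strand. Capitals mark matches to the motifs searched.
Alas1: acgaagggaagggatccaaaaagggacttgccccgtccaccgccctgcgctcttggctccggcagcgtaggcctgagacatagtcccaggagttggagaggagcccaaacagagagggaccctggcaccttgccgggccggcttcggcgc
Alas2: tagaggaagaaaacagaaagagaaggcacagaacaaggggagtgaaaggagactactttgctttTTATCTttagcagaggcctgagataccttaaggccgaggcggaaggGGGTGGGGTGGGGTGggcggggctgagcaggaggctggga
The search covered both strands for AGATAA (the motif of GATA factors), CACCC (the box bound by Kruppel-like factors), TATAAA (the TATA box) and TGACNNNGC (the core of the antioxidant response element). In Alas2 the capitals are 1 AGATAA read on the opposite strand, at -86 to -81 from the start, and 3 adjoining CACCC boxes on the opposite strand between -40 and -26, none overlapping another. No motif was found in the Alas1 window, which says only that these letters are not in it. Of 32851 windows of the same length, 5.65% held AGATAA, 37.4% CACCC, 7.57% TATAAA and 6.8% TGACNNNGC. The Alas1 window was 65.3% G or C with 10 CG pairs and the Alas2 window 54.7% with 3, against medians of 54% and 4 over all windows. The match is a description of the sequence; no binding was measured in these tumors.

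Fech, the last enzyme of the pathway, had means of 9.52 ± 0.76 (SD, n = 9) and 9.18 ± 0.24 (SD, n = 23) in sham and irradiated wild-type hosts. The sham tumors ran from 8.89 to 11.46 around a median of 9.35, and the irradiated ones from 8.84 to 9.72 around 9.14. All sham tumors but number 46 lay inside the irradiated range, and 18 of 23 irradiated tumors were below the sham median. The difference of -0.34 became -0.10 without tumor 46 and 0.00 without both that tumor and the low 18S arrays. Of the probe sets of Fech, the next brightest went the other way in wild-type hosts, with a difference of 0.21, and correlated with the one used at r = 0.32 over the 56 arrays; the one after it, at -0.35, correlated at r = 0.82.

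In heterozygote hosts Fech was 8.47, 8.57, 8.62, 8.66, 8.97 and 9.43 in the sham tumors and 8.57 to 9.58 with a median of 8.97 in the irradiated ones. Here 17 of 18 irradiated tumors were above the sham median of 8.64, and 4 of the 6 sham tumors lay inside the irradiated range. The one at 9.43 has a low 18S signal. The difference was 0.25 (SE 0.19, 95% interval -0.12 to 0.62; limma adjusted p = 0.923). It was positive for the next brightest probe set too, at 0.54, again not called (limma adjusted p = 0.664).

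Hmox1, which breaks heme down, was 7.10, 8.15, 8.34, 8.71, 8.75, 8.76, 9.76, 10.21 and 12.84 in the sham tumors of wild-type hosts. The irradiated tumors ran from 6.18 to 9.06 with a median of 7.76. In this gene 3 of 9 sham tumors were above every irradiated tumor and 6 of 23 irradiated tumors below every sham tumor, with the others mixed. The means were 9.18 ± 1.64 (SD, n = 9) and 7.66 ± 0.74 (SD, n = 23), a difference of -1.52, and 21 of 23 irradiated tumors were below the sham median of 8.75.

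The 3 sham tumors above the irradiated range were number 46, at 12.84, and numbers 65 and 60, at 10.21 and 9.76, both with low 18S signal. The difference was -1.06 without tumor 46 and -1.51 without the low 18S arrays. Without both it was -0.58, with means of 8.18 ± 0.77 (SD, n = 4) and 7.60 ± 0.71 (SD, n = 21), and 19 of 21 irradiated tumors stayed below the sham median. The score over 16 measured macrophage markers of 17 ranged from 9.36 to 11.23 in sham and from 8.50 to 11.09 in irradiated tumors, and the highest of the sham values was in tumor 60. The part of macrophages and of the 18S signal in the difference was not tested.

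In heterozygote hosts Hmox1 ran from 6.77 to 9.29 with a median of 7.35 in the 6 sham tumors. The irradiated tumors ran from 6.80 to 8.74 with a median of 7.73, within the sham range. The difference was 0.14 (SE 0.42, 95% interval -0.70 to 0.98; limma adjusted p = 0.981), and it changed sign, to -0.02, when the lowest sham tumor was left out. For comparison, the difference in wild-type hosts was -1.52.

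**Figure D2:**
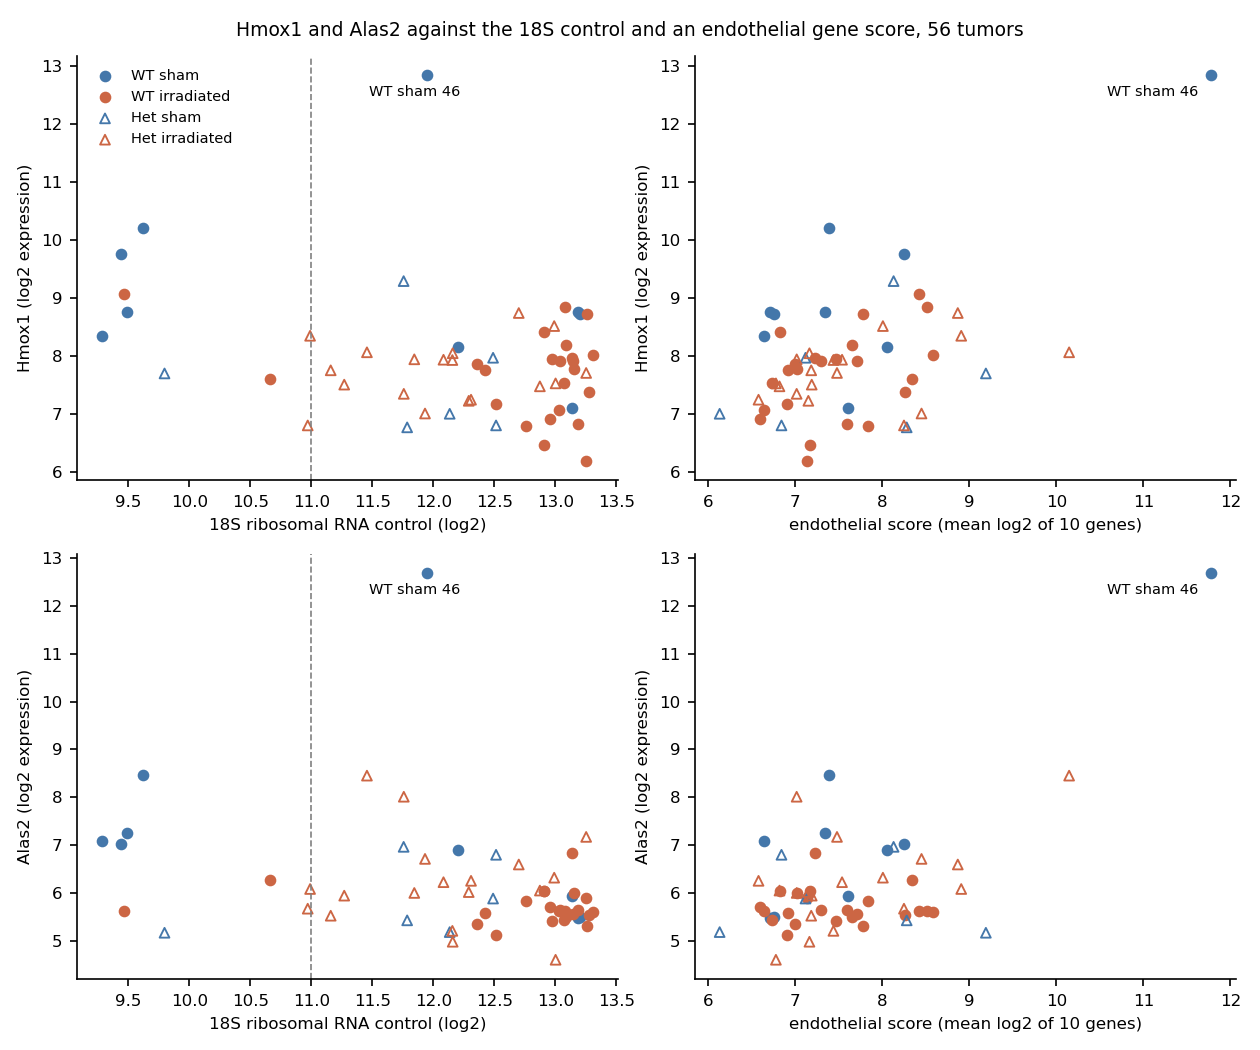
Hmox1 (top) and Alas2 (bottom), both log2 expression, against the 18S ribosomal RNA control (left, dashed line at 11) and the mean log2 level of 10 endothelial markers (right) in 56 tumors. Tumor 46 lies alone at an endothelial score of 11.78, and the 4 sham tumors of wild-type hosts with low 18S hold Alas2 values of 7.03 to 8.47.

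The biliverdin reductases act on biliverdin, Blvrb on its IX beta form. Blvra had means of 9.81 ± 0.34 (SD, n = 9) and 9.72 ± 0.21 (SD, n = 23) in wild-type hosts, with ranges of 9.32 to 10.35 and 9.26 to 10.12. Its difference of -0.09 was below the SD of either group, and was 0.07 without the low 18S arrays and -0.15 without tumor 46. In heterozygote hosts it was 0.13 (SE 0.12, 95% interval -0.11 to 0.37; limma adjusted p = 0.932), and 0.05 without the low 18S arrays.

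Blvrb, which reduces biliverdin IX beta and flavins and is abundant in red cells, had means of 8.82 ± 0.44 (SD, n = 9) and 8.49 ± 0.44 (SD, n = 23) in wild-type hosts. The sham tumors ran from 8.46 to 9.92 and the irradiated ones from 7.81 to 9.37, with 12 of 23 irradiated tumors below every sham tumor and 17 of 23 below the sham median. The difference was -0.33, or -0.20 without tumor 46 and -0.14 without that tumor and the low 18S arrays. In heterozygote hosts the means of 8.35 ± 0.23 (SD, n = 6) and 8.35 ± 0.37 (SD, n = 18) differed by 0.00 (SE 0.19, 95% interval -0.38 to 0.38; limma adjusted p = 0.999).

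Tfrc, the receptor through which cells take up transferrin-bound iron, was 8.27, 10.01, 10.87, 11.02, 11.61, 11.94, 12.20, 12.20 and 12.20 in the sham tumors of wild-type hosts. The irradiated tumors ran from 9.86 to 12.76 with a median of 11.47. Only the lowest sham value, in tumor 46, lay outside the irradiated range. The difference of 0.25 turned to -0.10 without that tumor and to -0.38 without it and the low 18S arrays, and the next brightest probe set gave -0.06. In heterozygote hosts the means were 10.94 ± 0.76 (SD, n = 6) and 11.30 ± 0.87 (SD, n = 18), a difference of 0.37 (SE 0.41, 95% interval -0.46 to 1.19; limma adjusted p = 0.958).

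Slc40a1, the iron exporter, varied more within groups than between them. In wild-type hosts the sham tumors ran from 7.75 to 10.70 around a median of 8.69 and the irradiated ones from 6.55 to 9.70 around 8.96. The difference of means was -0.19 while that of medians was 0.26, and the mean difference was 0.04 without tumor 46, -0.53 without the low 18S arrays and -0.15 without both. In heterozygote hosts the means were 8.66 ± 0.74 (SD, n = 6) and 8.69 ± 0.67 (SD, n = 18), a difference of 0.03 (SE 0.36, 95% interval -0.68 to 0.75; limma adjusted p = 0.995).

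Across the 8 genes, 6 differences were negative in wild-type hosts, where 49.3% of all 12508 genes were positive. Since Hmox1 and Alas2 were listed for being low in this contrast, nothing is read from that count. The median of the 8 was -0.26, or -0.13 without tumor 46, -0.43 without the low 18S arrays and -0.14 without both, and that of all genes was 0.00. In heterozygote hosts 8 of 8 were positive with a median of 0.18, where 51.8% of all genes were positive. None of the 8 was called in heterozygote hosts, where limma called 0 of 12508 genes (0%) at an adjusted p under 0.05 and 730 (5.84%) at an unadjusted p under 0.05. Without the low 18S arrays 6 of 8 were positive in heterozygote hosts, Blvrb and Slc40a1 being the exceptions. The genes are not independent. The p-values measure the spread within groups pooled over both host genotypes, so tumor 46 enters the heterozygote SEs and intervals. The heterozygote SE of Hmox1 was 0.42 with all arrays, 0.34 without tumor 46 and 0.29 with only the heterozygote groups fitted. For Alas2 these SEs were 0.50, 0.35 and 0.42, and for Alas1 0.118, 0.118 and 0.124. None of these genes was called in those fits.

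**Figure D3:**
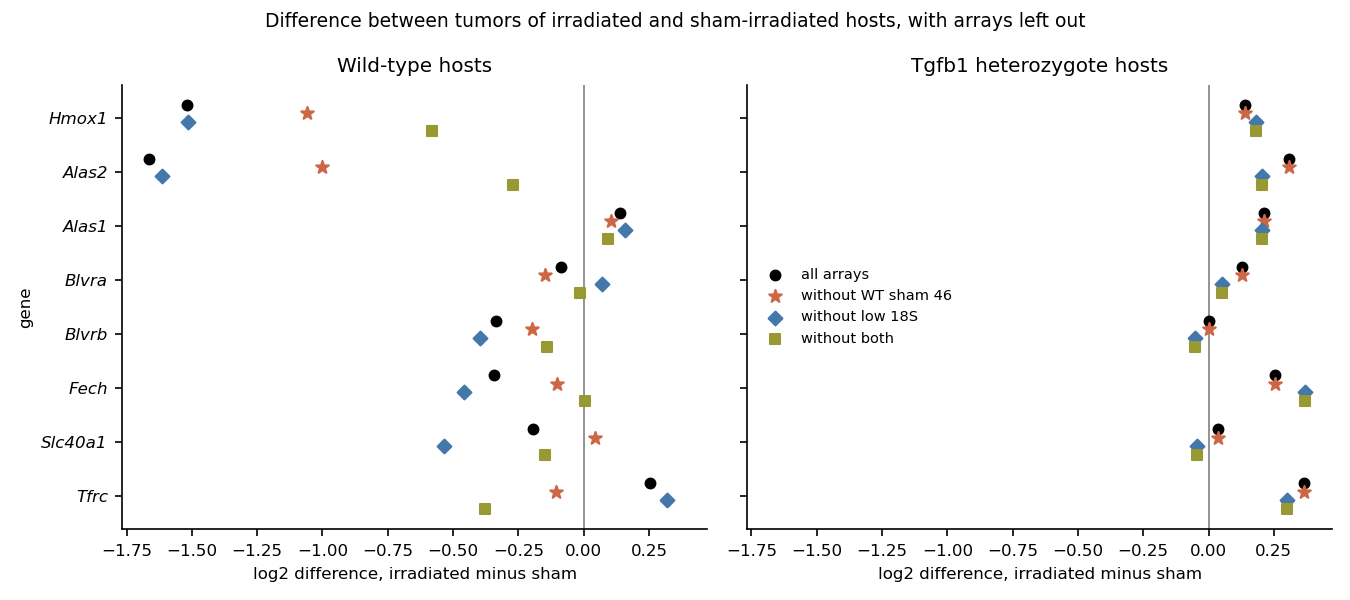
Log2 difference, irradiated minus sham, of the 8 genes in wild-type (left) and heterozygote (right) hosts with all arrays, without the sham tumor numbered 46, without arrays of low 18S signal, and without both. In wild-type hosts Hmox1 moves from -1.52 to -0.58 and Alas2 from -1.66 to -0.27, and the heterozygote values lie between -0.05 and 0.37.

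Tumor 46 was the highest of all 56 in Hmox1, Alas2, Blvrb, Fech and Slc40a1 and the lowest of all 56 in Tfrc. Against the mean of the other 8 sham tumors it was higher by 5.97 in Alas2, 4.12 in Hmox1, 2.18 in Fech, 2.12 in Slc40a1 and 1.24 in Blvrb. Its Tfrc level was lower, at 8.27 against a median of 11.78 in the other 8. It was also the lowest of its group in Alas1 and Blvra, though not of the 56 tumors.

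The marker lists show what else was high in it. Endothelial markers stood at 13.59 for Cldn5, 12.33 for Cdh5 and 12.26 for Pecam1, where the means of the sham group were 7.97, 8.24 and 7.88. Epithelial junction markers were lower than the group's means, with a score of 9.24 against a group median of 11.17. That score was still within the group's range of 7.38 to 11.67, and the lowest value belonged to another sham tumor. Among irradiated tumors of wild-type hosts the score went down to 6.52. The macrophage score was 9.87, within the group's range of 9.36 to 11.23. Its single markers went both ways. Cd68, a lysosomal marker of macrophages, read 11.86 against a group mean of 10.03, and Cd14 read 10.40 against 11.78.

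Markers of red cells were mostly dim. Of 16 erythroid markers 11 had a probe set with 1 symbol and 2, Rhd and Ermap, passed the filter. In sham tumors of wild-type hosts the mean over the 11 ranged from 4.38 to 4.89, the highest value being that of tumor 46. It ranged from 4.399 to 4.72 in irradiated wild-type hosts, and from 4.09 to 4.26 and 3.99 to 4.37 in heterozygote hosts. In tumor 46 Slc4a1, the anion exchanger of the red cell membrane, was 7.26, above the other 55 tumors. Its other probe sets read 7.27 and 3.48, where the highest of the other sham tumors of wild-type hosts read 4.15 and 3.50. Trim10 was 5.65 in tumor 46, against a group mean of 4.79. Hba-a1 was 4.14 and Klf1 4.35 in tumor 46, near their group means of 3.87 and 4.26. The beta globin gene Hbb-b2 read 10.65 there on a probe set whose sequence can match related genes and whose highest value in the other sham tumors was 5.26, but 6.36 on its brighter probe set, below 54 of the other tumors. Because these are bulk samples, more cells of a type and more RNA per cell cannot be told apart. The part of red cells or vessels in the levels of the 8 genes was not tested.

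Relations among the 8 genes were examined on values centred on their group mean, which removes the difference between irradiated and sham groups. Of 56 correlations (28 pairs in each host genotype), 8 had a Benjamini-Hochberg adjusted permutation p under 0.05, 5 in wild-type and 3 in heterozygote hosts. Without the low 18S arrays the same 8 passed, with adjusted p from 0.014 to 0.0243, and without tumor 46 there were 4, all of them among those 8. In heterozygote hosts Alas1 and Slc40a1 ran against each other over 24 tumors (Pearson r = -0.74, permutation p = 0.00012, adjusted p = 0.00672; Spearman rho = -0.73, permutation p = 9e-05, adjusted p = 0.00504). Without the 2 tumors farthest from the median of Alas1, r was -0.67. It was -0.81 within the 6 sham and -0.72 within the 18 irradiated tumors. In wild-type hosts the same pair gave r = -0.29 (permutation p = 0.113, adjusted p = 0.275; rho = -0.21, permutation p = 0.258, adjusted p = 0.632) over 32 tumors; the difference between the host genotypes was not tested.

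Fech and Tfrc, the enzyme that uses iron and the receptor that imports it, were inversely related in both host genotypes with all arrays. In heterozygote hosts r was -0.65 (permutation p = 0.00069, adjusted p = 0.0098; rho = -0.65, permutation p = 0.00089, adjusted p = 0.0166) over 24 tumors, and -0.54 without the 2 tumors farthest from the Fech median. In wild-type hosts r was -0.68 (permutation p = 0.00156, adjusted p = 0.0125; rho = -0.42, permutation p = 0.0173, adjusted p = 0.107) over 32 tumors, and -0.40 without the 2 farthest. The wild-type relation did not pass without tumor 46, where r was -0.40 (permutation p = 0.0281, adjusted p = 0.197).

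Hmox1 and Tfrc were inversely related in heterozygote hosts, with r = -0.59 (permutation p = 0.00128, adjusted p = 0.0119; rho = -0.58, permutation p = 0.00416, adjusted p = 0.0582) over 24 tumors and r = -0.49 without the 2 farthest tumors. In wild-type hosts the pair had r = -0.55 (permutation p = 0.0101, adjusted p = 0.063; rho = -0.41, permutation p = 0.0235, adjusted p = 0.131), and -0.26 without tumor 46. Blvra and Slc40a1 were inversely related in wild-type hosts, at r = -0.60 (permutation p = 0.00026, adjusted p = 0.00728; rho = -0.57, permutation p = 0.00071, adjusted p = 0.0166), with r = -0.64 without the 2 farthest tumors and -0.52 (permutation p = 0.00137, adjusted p = 0.0199) without tumor 46. In heterozygote hosts their r was -0.09 (permutation p = 0.69, adjusted p = 0.803), and the difference was not tested.

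The other 3 wild-type pairs past the threshold did not pass without tumor 46 either. Hmox1 and Slc40a1 had r = 0.54 (permutation p = 0.00267, adjusted p = 0.0187; rho = 0.42, permutation p = 0.0154, adjusted p = 0.107), 0.38 without the 2 farthest tumors and 0.37 (adjusted p = 0.211) without tumor 46. Blvrb and Fech had r = 0.61 (permutation p = 0.00122, adjusted p = 0.0119; rho = 0.33, permutation p = 0.0547, adjusted p = 0.236), 0.42 without the 2 farthest and 0.43 (adjusted p = 0.15) without tumor 46. Blvrb and Tfrc had r = -0.60 (permutation p = 0.0007, adjusted p = 0.0098; rho = -0.46, permutation p = 0.00785, adjusted p = 0.0733), -0.38 without the 2 farthest and -0.45 (adjusted p = 0.116) without tumor 46. Hmox1 and Alas2, the genes low in irradiated wild-type hosts, had r = 0.67 in wild-type hosts (permutation p = 0.0159, adjusted p = 0.0811; rho = 0.22, permutation p = 0.238, adjusted p = 0.632), but 0.02 without the 2 tumors farthest from the Hmox1 median and 0.23 without tumor 46. In heterozygote hosts their r was 0.17 (permutation p = 0.416, adjusted p = 0.614).

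**Figure D4:**
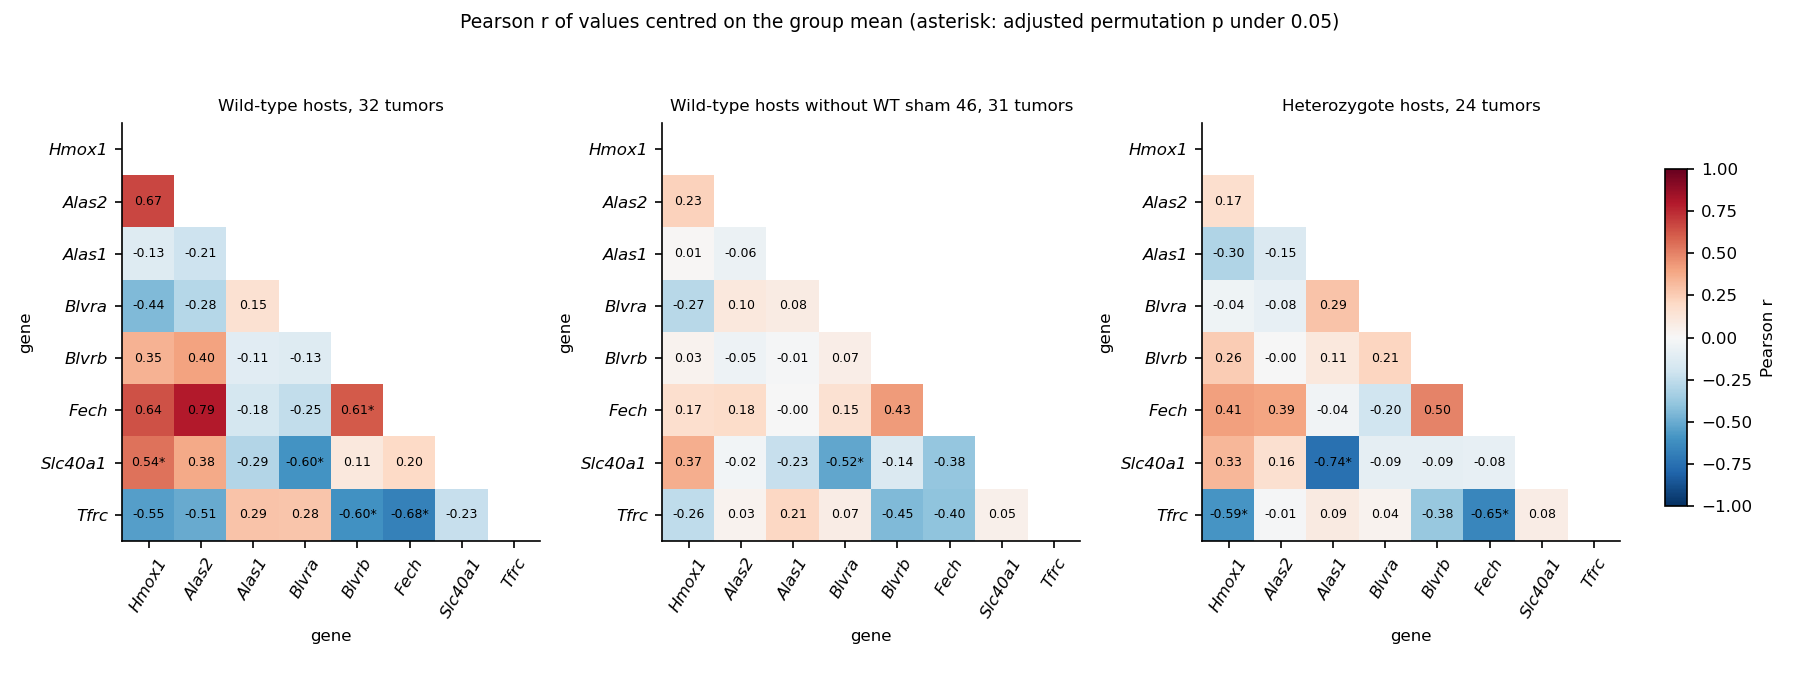
Pearson r between the 8 genes over values centred on the group mean, for 32 wild-type tumors, the same without tumor 46 (31 tumors) and 24 heterozygote tumors; asterisks mark adjusted permutation p under 0.05. Of 5 marked pairs in wild-type hosts, Blvra with Slc40a1 is the one still marked without tumor 46.

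None of 64 relations of the 8 genes with the macrophage, erythroid, endothelial and epithelial junction scores passed the threshold after adjustment with all arrays. The erythroid score was the mean of Rhd and Ermap, the 2 markers that passed the filter. Its group means were 5.14 to 5.65, below the filter value of 5.83, so its relations cannot decide on the part of red cells. With the epithelial junction score Fech had r = -0.48 in wild-type hosts (permutation p = 0.00944, adjusted p = 0.0549; rho = -0.30, permutation p = 0.0935, adjusted p = 0.353), and -0.41 without the 2 tumors farthest from the median of the score. This relation passed without tumor 46, at r = -0.64 (permutation p = 0.00019, adjusted p = 0.0122; rho = -0.36, permutation p = 0.0462, adjusted p = 0.35), and without the low 18S arrays, at r = -0.54 (permutation p = 0.00026, adjusted p = 0.0166; rho = -0.34, permutation p = 0.0904, adjusted p = 0.4), in both cases by r and not by rho. In wild-type hosts the endothelial score gave Hmox1 an r of 0.68 (permutation p = 0.00406, adjusted p = 0.0524; rho = 0.44, permutation p = 0.0145, adjusted p = 0.216) and Fech an r of 0.76 (permutation p = 0.00737, adjusted p = 0.0524; rho = 0.19, permutation p = 0.308, adjusted p = 0.505). Without the 2 tumors farthest from the median of the score these were 0.32 and 0.17, so both rest on those tumors, and without tumor 46 they were 0.33 (permutation p = 0.0752, adjusted p = 0.241) and 0.29 (permutation p = 0.127, adjusted p = 0.279). Among the lowest p-values in heterozygote hosts were those of Fech with the endothelial score, at r = 0.62 (permutation p = 0.00176, adjusted p = 0.0524; rho = 0.49, permutation p = 0.0189, adjusted p = 0.216), and Hmox1 with the macrophage score, at r = 0.55 (permutation p = 0.00681, adjusted p = 0.0524; rho = 0.60, permutation p = 0.00444, adjusted p = 0.142). Without the 2 farthest tumors these were 0.41 and 0.59, and without the low 18S arrays their adjusted permutation p-values were 0.143 and 0.159. Tfrc had r = -0.58 with the endothelial score there (permutation p = 0.0036, adjusted p = 0.0524; rho = -0.63, permutation p = 0.00178, adjusted p = 0.114). The epithelial junction score there gave Hmox1 an r of -0.59 and Fech an r of -0.555 (permutation p = 0.00446 and 0.00672, adjusted p = 0.0524 for both). Their rho was -0.41 and -0.39 (adjusted permutation p = 0.353 for both). In wild-type hosts the endothelial score gave Tfrc an r of -0.66 and Slc40a1 an r of 0.52 (permutation p = 0.00201 and 0.00558, adjusted p = 0.0524 for both). Without tumor 46 these were -0.38 and 0.31.

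The genes whose group-centred values over the 56 tumors ran most like each of the 8 are given as a description, with r and no test. For Hmox1 they were Ccl2 (0.71), a monocyte-attracting chemokine, Metrnl (0.69), Sh3bgrl3 (0.69), Smad1 (0.69) and Ube2g2 (0.68). Without tumor 46, Ube2g2 (0.70) led and was the 1 gene of these 5 still among the first 5. For Alas2 they were Emilin3 (0.73), Ndufa4l2 (0.72), Rtn4rl2 (0.71), Ccdc184 (0.70) and Car7 (0.69). Without tumor 46 none of those 5 remained in the first 5, which became Tnxb (0.55), Serpina3n (0.55), Hbb-b2 (0.54), Prg4 (0.52) and Clec3b (0.52).

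Tfrc ran with 5033430I15Rik (r = 0.83), Ss18 (0.78) and Gpx2 (0.76), a glutathione peroxidase of epithelia, and Slc40a1 with Rhoj (0.69), Tspan4 (0.61) and Twist1 (0.60), a mesenchymal transcription factor. The first of each, 5033430I15Rik and Rhoj, stayed first without tumor 46. Blvra ran with Snrnp200 (0.66), Mrps5 (0.62) and Dut (0.62), and Alas1 with Senp8 (0.48), Acad11 (0.48) and Tdrp (0.46); the same 3 genes led for each without that tumor. Fech ran with Ccm2l (0.78), Lhx6 (0.78) and Cdc42ep2 (0.78), and Blvrb with Snx8 (0.67), Pgap6 (0.65) and Plekhg1 (0.64), and for both of these 0 of 3 remained without it.

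Of 74 other genes of heme and iron handling in 6 lists, 68 had a probe set with 1 symbol and 61 passed the filter. In heterozygote hosts limma called 0 of the 61, against 0% of all genes. At an unadjusted p under 0.05, 4 were higher in irradiated hosts (2.89% of all genes were) and 1 lower (2.95% of all genes). The higher ones were Tmem14c, a mitochondrial porphyrin transporter, at 0.37, Isca1, an iron-sulfur cluster assembly protein, at 0.34, Skp1, part of the ubiquitin ligase that degrades iron regulatory protein, at 0.26, and Fth1, the ferritin heavy chain, at 0.21. The lower one was Pcbp2, an iron chaperone, at -0.26. Their adjusted p-values in limma were 0.676 to 0.816, and the median over the 61 genes was 0.02. By list the heterozygote medians were 0.02 for 9 genes of heme synthesis, -0.18 for 11 of heme transport and breakdown, 0.045 for 12 of iron uptake, 0.03 for 6 of iron storage and export, 0.048 for 13 of iron sensing and 0.09 for 10 of iron-sulfur cluster assembly, where the median of all genes was 0.01.

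Of the genes set for naming whatever their values, Fth1 was 14.19 ± 0.21 (SD, n = 6) in sham and 14.40 ± 0.17 (SD, n = 18) in irradiated heterozygote hosts, and 14.31 ± 0.09 (SD, n = 9) and 14.36 ± 0.22 (SD, n = 23) in wild-type hosts. Hmox2, the constitutive oxygenase, differed by 0.08 (SE 0.10; limma adjusted p = 0.959) and Bach1, the heme-binding repressor of Hmox1, by 0.17 (SE 0.14; limma adjusted p = 0.925) in heterozygote hosts. In wild-type hosts Hmox2 differed by -0.14 and Bach1 by 0.02. The light chain of ferritin was not analysed here.

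In wild-type hosts limma called 0 of the 61 genes, and at an unadjusted p under 0.05 there were 2 higher (3.17% of all genes) and 4 lower (3.9% of all genes), with a median of -0.04. The list of heme transport and breakdown had the lowest median in both host genotypes, at -0.18 in each, with 4 of 11 genes positive in wild-type and 3 of 11 in heterozygote hosts. The gene in it with the lowest difference was Cd163, the macrophage receptor for hemoglobin bound to haptoglobin, chosen here after its values were seen. Its difference was -1.03 in wild-type and -0.88 in heterozygote hosts; the latter was not called (limma adjusted p = 0.873). The sham and irradiated means were 7.15 ± 1.11 (SD, n = 9) and 6.12 ± 0.92 (SD, n = 23), and 7.38 ± 1.02 (SD, n = 6) and 6.497 ± 1.11 (SD, n = 18).

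**Figure D5:**
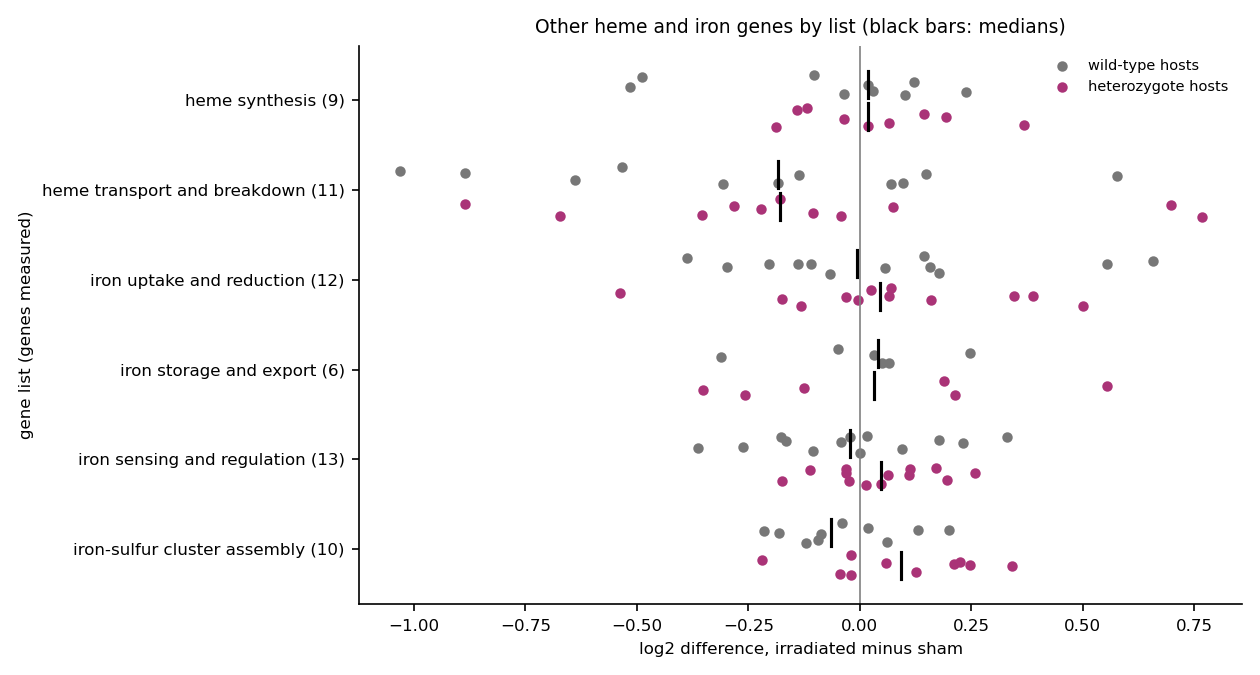
Log2 difference, irradiated minus sham, of 61 other heme and iron genes in 6 lists, each point a gene, in wild-type (grey) and heterozygote (purple) hosts, with black bars at the medians. The list medians lie between -0.18 and 0.09, and Cd163, at -1.03 and -0.88, is the lowest point in each host genotype.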

How the data were processed

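Total RNA of 56 tumors, extracted with Trizol, was measured on Affymetrix 3' expression arrays, 100 ng per array, as the labels' protocols state. The authors deposited log2 values, 1 for each probe set and array, from RMA (per the submitters' processing notes), a method that corrects background, equalises array distributions and summarises probes. Its version is not stated there. Groups and tumor numbers come from the titles, and 0 value columns were left unused. Signal over background per array was not analysed here; the number of arrays limits the precision.

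Of 45101 probe sets, 34958 had 1 gene symbol, 932 several and 9211 none listed; symbols were updated through GRCm38.p6 gene identifiers. The filter required 6 arrays or more above 5.83, the median over the whole table, and the brightest probe set stood for its gene. limma 3.58.1 in R 4.3.3 (lmFit, eBayes) was fitted to 4 group means over 56 arrays, with Benjamini-Hochberg adjustment over 12508 genes and a threshold of 0.05. Correlations used 100000 two-sided permutations within groups. The scripts were tested on simulated data.

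The genes and lists were chosen with earlier results of these data known. Named genes are the 8 genes, other heme and iron genes with an unadjusted p under 0.05 in heterozygote hosts, Fth1, Hmox2 and Bach1, the 3 (5 for Hmox1 and Alas2) most correlated genes, and the brightest markers; other markers were named after their values were seen. Alternatives were no or a stricter filter, all probe sets or the next brightest, joint quantile normalization, trended robust eBayes, array weights, 18S or 3' minus 5' covariates, the compared groups alone, and arrays left out.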

Additional observations from a re-analysis of the deposited data

Results flagged for a closer look

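In 16 groups of 6 or 9 tumors (8 genes in the sham groups of each host genotype), the highest or lowest tumor was compared with the spread of its group by Dixon's criterion, which chance meets in about 1 in 20 groups. It was met 4 times, each time by the sham tumor of a wild-type host numbered 46. The 8 genes were read in the same tumors, so the 16 groups are not independent. Alas2 was also listed from a contrast that uses this sham group, and nothing is read from the count. Alas2 was 12.68 there, with the next tumor at 8.47. Fech was 11.46, with the next at 9.55. Slc40a1 was 10.70, with the next at 9.16, and Blvrb was 9.92, with the next at 8.96. Hmox1 in the same tumor, at 12.84, did not meet the criterion. The same tumor also had the highest endothelial score of the 56 tumors, at 11.78; the part of its tissue make-up in these levels was not tested.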

How the results depend on the processing

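No paired analysis was possible because the tumor numbers do not recur across groups. In heterozygote hosts 0 genes were called under every alternative run. In wild-type hosts 0 were called except with all probe sets tested separately, which called 1 (Ppp4r1l-ps, -0.84, limma adjusted p = 0.00606). Hmox1 and Alas2 stayed negative in wild-type hosts under every alternative, from -1.78 to -0.58 and from -1.90 to -0.27. In wild-type hosts the sign turned for Blvra without low 18S arrays (0.0714), for Fech with the next brightest probe set (0.21) and without low 18S arrays and tumor 46 (0.0047), for Slc40a1 with array weights (0.19), and for Tfrc with the next brightest probe set (-0.0608) and without low 18S arrays and tumor 46 (-0.38). In heterozygote hosts it turned for Blvrb with joint quantile normalization (-0.0175), array weights (-0.15), the 3' minus 5' covariate (-0.0264) and no low 18S arrays (-0.0532, with or without tumor 46), and for Slc40a1 without low 18S arrays (-0.0426, likewise). Leaving out each tumor in turn gave -0.13 to 0.28 for Slc40a1, -0.0764 to 0.0563 for Blvrb and -0.0239 to 0.48 for Hmox1 in heterozygote hosts, 0.16 to 0.52 for Alas2, 0.18 to 0.53 for Tfrc, 0.0588 to 0.19 for Blvra, 0.19 to 0.38 for Fech and 0.10 to 0.27 for Alas1, with the ends set by sham tumors 15, 19, 30, 38 and 58, and -0.33 to 0.0429 for Slc40a1 and -0.10 to 0.39 for Tfrc in wild-type hosts; the wild-type turns came without tumor 46. The cause was not tested. Setting aside the low 18S arrays left 5 sham tumors per genotype, and 4 in wild-type hosts when tumor 46 was also left out.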
